A study of Mus musculus with 8 samples.

Results

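The genes described here encode receptors for neurotransmitters and neuromodulators: the GABA-A receptor subunits Gabrb1 and Gabra4, the glutamate receptors Gria1, Grik1 and Grm3, the adenosine receptor Adora2a, the adrenergic receptor Adra2c and the orphan receptor Gpr158. They are 8 of the 155 distinct features in the authors' deposited table and were taken by gene symbol, after their values in that table had been seen. RNA sequencing was done on neural stem cells that came from the subventricular zone (SVZ) of mice, the germinal layer along the lateral ventricles, grown in EGF and FGF-2. The series holds 4 samples labelled shPaupar and 4 samples labelled control. The labels give the same nucleofection protocol for all of them and do not say what construct the control cells received. Paupar is a long non-coding RNA whose gene neighbours that of the transcription factor Pax6. No row used here carries the symbol Paupar or Pax6, so the extent of the knockdown could not be checked. The age, strain and number of animals are not stated in the labels, nor whether replicates are separate cultures.

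GABA-A, AMPA and kainate receptors are ligand-gated ion channels, whereas the metabotropic glutamate, adenosine and adrenergic receptors act through G proteins on cyclic AMP and related messengers. In the adult SVZ, GABA released by neuroblasts acts on GABA-A receptors of the astrocyte-like stem cells and slows their division. Glutamate, purines and noradrenaline also reach this niche.

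Every value rests on a comparison table with 1 level per group, so there is no error between samples for a level and the depth per sample is unknown. Each feature has a log2 fold change, taken as shPaupar over control, and p-values before and after adjustment, from a test that the sources used here do not name. All features of the table have an adjusted p below 0.05, and the largest of these in the authors' deposited table is 0.0471. It is therefore a list selected for change, and the 8 genes were picked from it, so their direction and size are described and not tested. Below, a level is the deposited group value on a scale that is not stated. A log2 level ratio is the log2 of the shPaupar level over the control level. In bulk RNA, fewer cells of a type and less RNA per cell cannot be told apart.

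By the authors' deposited table, the rows of all 8 receptor genes were lower in shPaupar than in control cells, 7 of them rows of whole genes and 1, that of Grik1, of a transcript locus. Of all 155 features, 101 were lower (65.2%), and the 8 rows are among these. The 7 receptor genes above 0 in both groups had log2 level ratios from -1.60 (Adra2c) to -0.34 (Grm3), with a median of -0.63. The median was -0.45 over the 132 features above 0 in both groups, and -0.63 over the 90 of those that were lower. The receptor genes thus lay at the middle of the listed lower features and not beyond them. Those features, here and below, include rows of transcript loci, such as that of Itpr1, and the kinds of row were not separated. Grik1, the remaining gene, was listed at 0 in shPaupar cells.

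**Figure D1:**
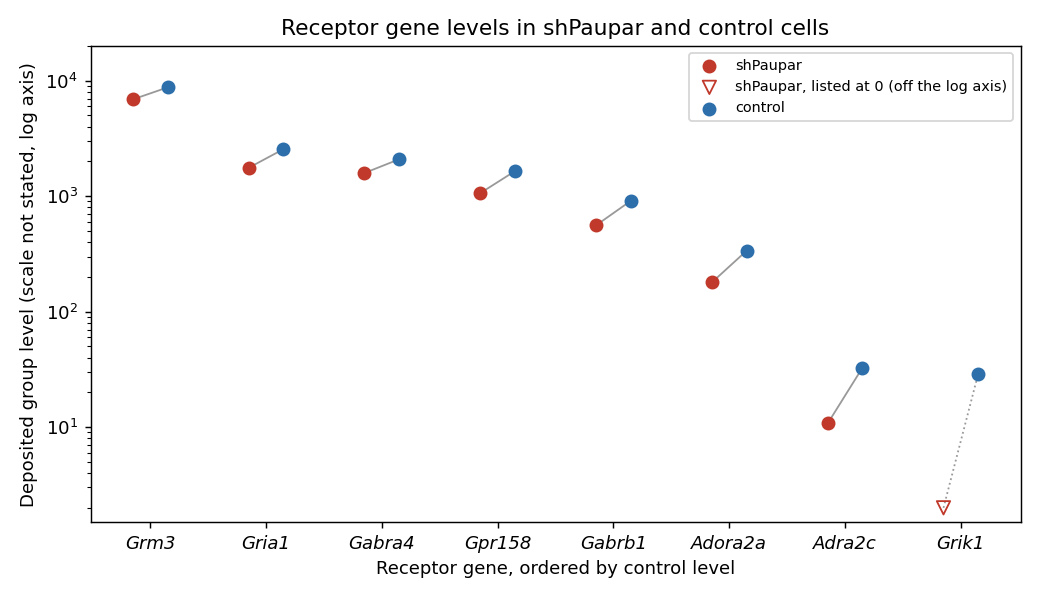
Deposited group levels (vertical log axis, scale not stated) of the 8 receptor genes, ordered along the horizontal axis by deposited control level, with shPaupar cells left (red) and control cells right (blue) for each gene. Each point is 1 group value without replicate error, and the open triangle marks Grik1, listed at 0 in shPaupar cells and at 29.0 in control cells. The shPaupar point lies below the control point for every gene.

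The GABA-A receptor is a chloride channel assembled from several subunits, and the table holds 2 of its genes. Gabrb1, which encodes a beta subunit needed for GABA binding and channel assembly, had a level of 559 in shPaupar cells and 911 in control cells. For Gabrb1, the authors' deposited table lists a log2 fold change of -0.70 and an adjusted p of 0.000125. The level in shPaupar cells was 38.6% lower. Gabra4, an alpha subunit found mainly in receptors outside synapses, had a level of 1587 in shPaupar cells and 2088 in control cells. The log2 fold change of Gabra4 in the authors' deposited table is -0.40, with an adjusted p of 0.0326. The level was 24.0% lower in shPaupar cells. Both subunit genes were lower, Gabrb1 by more. If the deposited p-values come from a two-sided Wald test, which is an assumption, the 95% interval of the log2 fold change runs from -0.96 to -0.45 for Gabrb1 and from -0.60 to -0.19 for Gabra4. These intervals overlap, and the difference between the 2 genes was not tested. The other 17 GABA-A subunit genes and both GABA-B genes were not analysed here.

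Gabra4 and Gabrb1 lie head to head on chromosome 5. The deposited locus of Gabra4 is 71569749 to 71658308, on the minus strand in the GENCODE M21 annotation (assembly GRCm38), and that of Gabrb1 is 71658113 to 72149037, on the plus strand. Their spans overlap by 196 bases at their starts. In the RefSeq promoter table the first start of Gabrb1 lies 387 bases inside Gabra4, and a further start lies at 71699932. Gabrg1 and Gabra2, other GABA-A subunit genes, lie on the minus strand of the same region, within 1 Mb of Gabra4. Of the 18 protein-coding genes in the span of the pair and 1 Mb on either side, only Gabra4 and Gabrb1 have a row in the authors' deposited table. Whether the counting used strand is not given, so reads in the shared bases cannot be assigned to one gene or the other. The same holds for antisense genes that overlap members, Gm38562 within Gabrb1 (19557 bases) and Gm13327 at the start of Gpr158 (1570 bases).

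**Figure D2:**
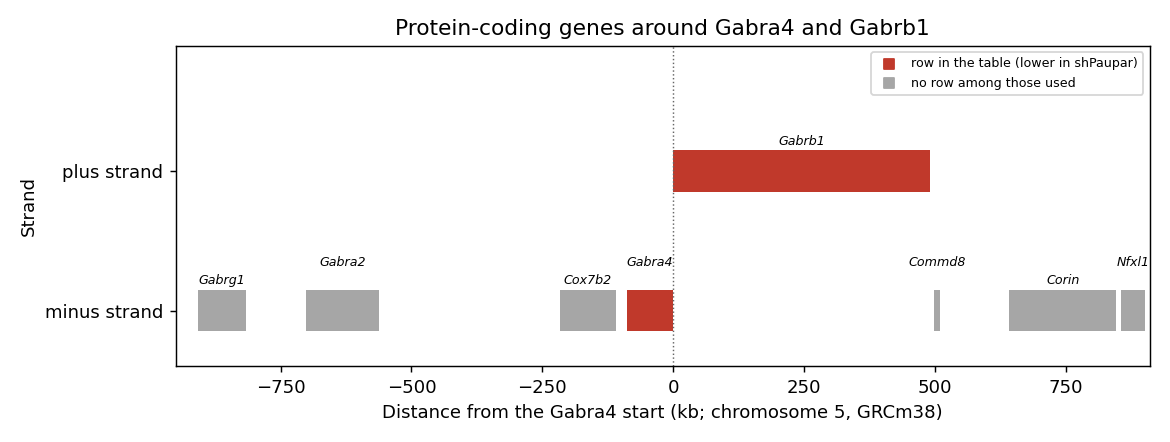
Protein-coding genes around Gabra4 and Gabrb1 on chromosome 5, from Gabrg1 to Nfxl1, drawn to scale as distance in kb from the start of Gabra4 (dotted line), plus strand above and minus strand below. The 2 genes with a row in the authors' deposited table (red) adjoin at their starts, and the other genes drawn, Gabrg1 and Gabra2 among them, have no row among those used (grey).

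The sequence before a start of 4 receptor genes is shown. Gabra4 and Gabrb1 were taken because they adjoin. Gpr158 and Grm3 are the other members for which RefSeq (GRCm38.p6) gives a start with a long stretch outside annotated exons. The stretch of Gabrb1 lies within its own span, before its further start, and not where it adjoins Gabra4. Each stretch lies before the start and is bounded by the window or the nearest exon, and capitals mark CpG dinucleotides. They are Gabra4 at chr5:71658364-71658558 on the minus strand (195 bases, 10 CpG), Gabrb1 before its further start at chr5:71699825-71699931 on the plus strand (107 bases, 2 CpG), Gpr158 at chr2:21367317-21367541 on the plus strand (225 bases, 13 CpG) and Grm3 at chr5:9725353-9725602 on the minus strand (250 bases, 8 CpG).
Gabra4: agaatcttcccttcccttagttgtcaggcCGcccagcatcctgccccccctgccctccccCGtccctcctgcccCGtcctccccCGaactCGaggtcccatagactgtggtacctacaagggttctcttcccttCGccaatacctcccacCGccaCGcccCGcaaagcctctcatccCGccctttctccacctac
Gabrb1: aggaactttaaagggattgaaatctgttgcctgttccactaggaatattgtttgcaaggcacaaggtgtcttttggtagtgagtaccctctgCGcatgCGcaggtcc
Gpr158: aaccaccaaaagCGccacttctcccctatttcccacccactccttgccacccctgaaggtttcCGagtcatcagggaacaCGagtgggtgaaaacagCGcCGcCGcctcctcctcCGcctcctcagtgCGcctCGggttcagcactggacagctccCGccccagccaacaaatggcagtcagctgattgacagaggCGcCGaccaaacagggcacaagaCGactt
Grm3: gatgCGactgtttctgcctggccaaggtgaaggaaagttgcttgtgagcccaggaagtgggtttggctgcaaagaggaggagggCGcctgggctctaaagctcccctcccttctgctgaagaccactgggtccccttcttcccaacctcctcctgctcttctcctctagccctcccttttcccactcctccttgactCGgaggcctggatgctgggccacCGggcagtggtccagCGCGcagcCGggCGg

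RefSeq promoter windows, which hold 250 bases before and 50 after a start, were matched for 5 of the 8 genes (6 windows). The window at the first start of Gabrb1 held 25 CpG dinucleotides, more than 81.6% of the 32851 windows of mouse genes, while that at its further start held 9. The Gpr158 window held 15, those of Gabra4 and Grm3 held 12 and 11, and the Adra2c window held 7, which is also the median of all windows. The GC box GGGCGG, searched on both strands, was present in the windows of Gabra4, Gpr158 and Grm3 and in 35.7% of all windows. The CCAAT box was present for Gabra4 and Adra2c, against 37.4% of all windows, and the E-box CACGTG for Adra2c alone, against 7.15%. The TATA box TATAAA and the cAMP response element TGACGTCA were found in 0 of the 6 windows, against 13.6% and 1.79% of all windows. There were 0 overlaps between matches of different motifs in these windows. No searched motif was present in all of the members' windows.

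Of the ionotropic glutamate receptors, the table holds 1 AMPA and 1 kainate receptor gene. Gria1, a subunit of the AMPA receptors that carry fast excitatory currents (chromosome 11, 57011387 to 57330244), had a level of 1759 in shPaupar cells and 2551 in control cells. For Gria1, the authors' deposited table lists a log2 fold change of -0.54 and an adjusted p of 0.000556. The level was 31.0% lower in shPaupar cells, and the derived interval runs from -0.75 to -0.33. The other 3 AMPA subunit genes and all 7 NMDA subunit genes were not analysed here.

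Grik1, which encodes a kainate receptor subunit, is listed by the authors' deposited table at 0 in shPaupar cells and at a level of 29.0 in control cells, with an adjusted p of 0.0347. Its locus (chromosome 16, 87935200 to 88290215) is not the annotated gene, which runs from 87895900 to 88290265, but equals the span of Grik1-207, a transcript annotated as a retained intron. That transcript has 13 exons of 3.30 kb in all and is 1 of 11 annotated for the gene. The deposited p-value of Grik1, 0.000185, is larger than that of Adra2c, 0.000157, yet its adjusted p of 0.0347 is smaller than the 0.0378 of Adra2c in the authors' deposited table. The 2 rows therefore cannot come from the same adjustment in rank order. The Grik1 value is thus that of a transcript locus and need not hold for the whole gene, and no fold is given against a group listed at 0.

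Grm3, a metabotropic glutamate receptor that lowers cyclic AMP and is expressed by astrocytes as well as neurons (chromosome 5, 9485541 to 9725170), had the highest level per kb of exon of the 7 genes above 0 in both groups. Its level was 6888 in shPaupar cells and 8746 in control cells. The log2 fold change of Grm3 in the authors' deposited table is -0.34, with an adjusted p of 0.0449. The level in shPaupar cells was 21.2% lower, the smallest fold among the 7 genes above 0 in both groups. With an adjusted p of 0.0449 it lies nearest, among the 8 genes, to the edge of the authors' deposited table, which ends at 0.0471. What lies beyond that edge is not known here. The other 7 metabotropic glutamate receptor genes were not analysed here.

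Adora2a, an adenosine receptor that raises cyclic AMP (chromosome 10, 75316877 to 75334784), had a level of 179 in shPaupar cells and 337 in control cells. For Adora2a, the authors' deposited table lists a log2 fold change of -0.91 and an adjusted p of 0.000726. Its level was 46.8% lower in shPaupar cells, and the derived interval runs from -1.27 to -0.55. Adra2c, an adrenergic receptor that lowers cyclic AMP and responds to noradrenaline (chromosome 5, 35278319 to 35281763), had a level of 10.8 in shPaupar cells and 32.6 in control cells. The log2 fold change of Adra2c in the authors' deposited table is -1.59, with an adjusted p of 0.0378. This was the largest fold of the 7 genes, 67.0% lower, with the lowest level per kb of exon of the 7 and the widest derived interval, from -2.41 to -0.76. The other 3 adenosine and 8 adrenergic receptor genes were not analysed here. The lower genes thus include a receptor that raises cyclic AMP and receptors that lower it.

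Gpr158, an orphan receptor of the metabotropic glutamate receptor class that binds the G protein regulator RGS7 and has been described as a glycine receptor (chromosome 2, 21367542 to 21830547), had the smallest adjusted p of the 8 genes. Its level was 1062 in shPaupar cells and 1648 in control cells. For Gpr158, the authors' deposited table lists a log2 fold change of -0.63 and an adjusted p of 0.000120. The level was 35.5% lower in shPaupar cells. The derived interval runs from -0.86 to -0.40. Its relative Gpr179 was not analysed here.

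**Figure D3:**
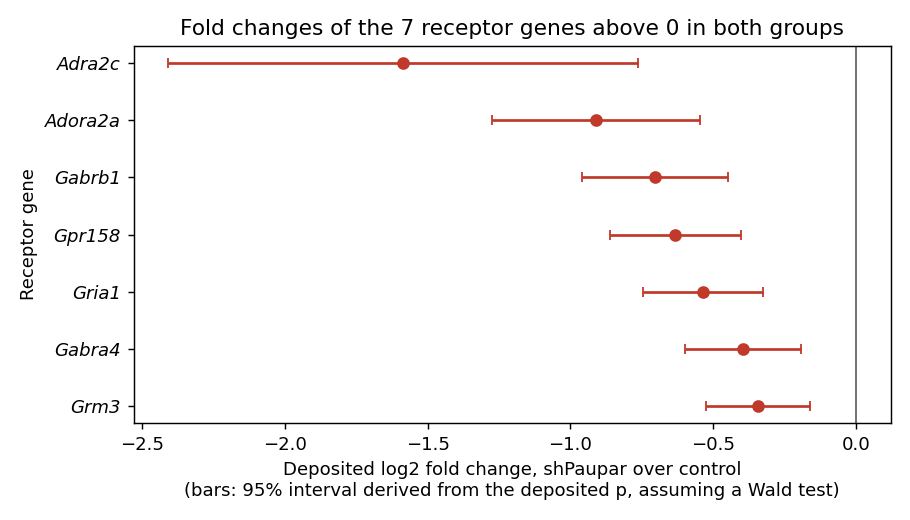
Deposited log2 fold changes (horizontal axis, shPaupar over control) of the 7 receptor genes above 0 in both groups, with 95% intervals derived from the deposited p-values under the assumption of a Wald test. Adra2c, at -1.59, has the widest interval, which overlaps those of Adora2a, Gabrb1 and Gpr158. The intervals of Gabra4, Gria1, Gpr158 and Gabrb1 overlap each other and those of Adora2a and Grm3. The intervals of Adora2a and Grm3 do not overlap each other.

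With an adjusted p below 0.01, 4 of the 8 receptor genes were left (Gpr158, Gabrb1, Gria1 and Adora2a). Of the 101 lower features in the authors' deposited table, 65 passed this threshold, which is 41.9% of all features. A deposited log2 fold change of -1 or less was reached by 2 genes, Adra2c and the Grik1 transcript. It was reached by 36 of the 101 lower features, or 23.2% of all features. At neither threshold did the receptor genes hold a larger share than the lower features did.

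To order the genes by level, levels were divided by the length of the merged annotated exons, which assumes that the deposited scale is not yet per length. Per kb of exon, Grm3 was at 2259 in shPaupar cells and 2868 in control cells, and Gria1 at 291 and 422. Gabra4 was at 261 in shPaupar cells and 343 in control cells, Gpr158 at 130 and 202, and Adora2a at 58.5 and 110.0. Gabrb1 followed at 40.4 per kb in shPaupar cells and 65.8 in control cells, and Adra2c at 3.12 and 9.47. The Grik1 row, divided by the exons of the transcript Grik1-207 alone, was at 8.79 per kb in control cells. The order of the 7 genes above 0 in both groups was the same in shPaupar and control cells, and without error between samples neighbours in it cannot be separated.

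The size of the fall was also set beside the deposited level, not divided by length. Across the 7 receptor genes, Spearman's rho between the deposited control level and the log2 level ratio was 0.96, so genes with lower levels had larger falls. With the control level per kb of exon, rho was 0.93. Over the other 83 lower features above 0 in both groups, rho with the deposited control level was 0.79. These are descriptions across genes of a single comparison, which share the same libraries and the same selection by adjusted p. Genes whose falls did not pass that selection are absent, so the rho values cannot be carried to genes that are not listed. Under the Wald assumption, the derived standard error was 0.420 for Adra2c and 0.0929 for Grm3. With a larger error only a larger fall passes, and how far the selection shapes the rho values was not tested. Set against the other lower features within 2-fold of its control level, Adora2a fell more than most, with 3 of 12 falling further. The corresponding counts were 7 of 23 for Gria1, 8 of 27 for Gpr158 and 9 of 21 for Gabrb1. Adra2c lay in the middle, with 4 of 8 falling further. Gabra4, with 18 of 23, and Grm3, with 14 of 14, fell less than most of the other listed lower features of like level. Rows of transcript loci are among those compared, such as that of Itpr1 (log2 level ratio -9.40) for Adora2a. Features whose falls were too small to pass the selection by adjusted p are not among those compared. The counts therefore cannot place Gabra4 or Grm3 among all genes of like level.

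**Figure D4:**
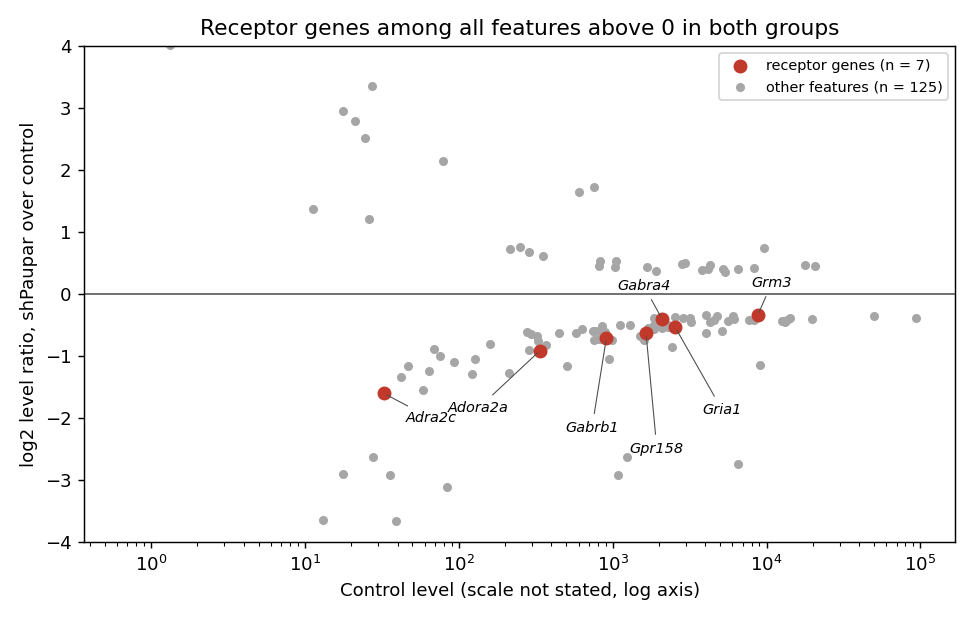
Log2 level ratio (vertical axis, shPaupar over control) against control level (horizontal log axis, scale not stated) for the 132 features above 0 in both groups, of which 15 lie outside the vertical limits of 4 and -4. The 7 receptor genes (red, labelled) lie along the band of lower features (grey), with ratios nearer to 0 at higher levels.

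By distance in log2 of the deposited control level, not divided by length, and log2 level ratio, the rows most like the middle of the 7 receptor genes (control level 1648, ratio -0.63) were Opcml, Pla2g12a and Prss35. This likeness rests on 2 values per row, 1 for each group. Opcml, a cell adhesion molecule of neurons named for opioid binding, was at 1171 in shPaupar cells and 1701 in control cells (log2 level ratio -0.54). The secreted phospholipase gene Pla2g12a was at 960 in shPaupar cells and 1607 in control cells (-0.74), and the protease gene Prss35 at 945 and 1515 (-0.68).

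Most loci of the receptor genes were long, a description that was not tested. The median span of the 8 loci was 279 kb, against 31.1 kb over the 146 other features with a locus and 17.4 kb over the 21951 protein-coding genes of GENCODE M21. Gabrb1 spans 491 kb, Gpr158 463 kb, the Grik1 transcript 355 kb, Gria1 319 kb and Grm3 240 kb. These 5 loci exceed 200 kb, as do 11 of the 146 others, and each is longer than more than 90% of protein-coding genes. Adora2a (17.9 kb) and Adra2c (3.45 kb, a single exon) are short. Gabrb1, Gabra4, Grm3 and Adra2c lie on chromosome 5, which holds 15 features of the table. The other 11 features there comprise 4 that were lower and 7 that were higher in shPaupar cells, by the authors' deposited table.

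Partner genes were read from lists of receptor families, auxiliary subunits, scaffolds, transmitter handling and signalling. The 17 receptor lists hold 127 genes, of which the 8 described here are the rows present, all lower, in 7 lists. The 5 partner lists hold 81 genes, of which 4 have a row, all lower, where 65.2% of all features are lower. The row of 1 of these, Itpr1, is a transcript locus. None of the 16 auxiliary subunit, 18 receptor scaffold or 8 adenosine metabolism and transport genes on these lists is among the rows used here. This does not show that they were unchanged. The lists are also not complete. Frrs1l, which encodes a protein associated with AMPA receptors, is on none of them. It was at 1604 in shPaupar cells and 2304 in control cells, with a deposited log2 fold change of -0.52. From the list of 15 genes for GABA and glutamate synthesis and transport came 2 transporters of glia. Slc6a11, a GABA transporter, was at 71549 in shPaupar cells and 93469 in control cells, and the authors' deposited table lists a log2 fold change of -0.39 and an adjusted p of 0.00748. For Slc1a2, the glial glutamate transporter, the log2 fold change in the authors' deposited table is -0.35 and the adjusted p 0.0435.

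The 24 signalling genes had 2 rows. That list leaves out other signalling genes that have a row, such as Rgs17 and Pde8a. The authors' deposited table lists Gnb3, a G protein beta subunit, at 0 in shPaupar cells and at 6.27 in control cells. In it, the row of Itpr1, the calcium release channel gated by inositol trisphosphate, stands at 0.520 in shPaupar cells and 351 in control cells. Its locus equals the span of Itpr1-209, a retained-intron transcript, so like Grik1 it need not stand for the gene.

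Markers of neural cell types were read beside these genes, as far as they have rows. None of the 9 neural stem cell markers is among the rows used here, so the cell type label could not be checked. The astrocyte markers Aqp4 and Aldoc, 2 of 4 on the list, were lower in shPaupar cells, with a summed level of 7319 in shPaupar cells and 9923 in control cells. The locus listed for Aqp4 differs from its annotated gene. The neuroblast and neuron markers had 1 of 7 present, Dcx, which was lower at 152 in shPaupar cells and 286 in control cells. The 5 oligodendrocyte lineage, 4 microglial and 2 endothelial markers have 0 rows among those used here. The rows of Aqp4, Aldoc and Dcx moved in the direction of the receptor genes, as did 65.2% of all features. They cannot stand for the markers without a row, and the part of these cell types in the receptor levels was not tested.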

How the data were processed

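RNA from 4 shPaupar and 4 control samples was depleted of ribosomal RNA with probes, primed with random hexamers and sequenced as paired reads, per the labels' protocols. The tools named in the submitters' processing notes, without roles, are StringTie, TopHat2, HISAT, HISAT2 and CASAVA. The statistical test, use of strand and genome assembly were not given in the sources used here. Deposited by the authors are 156 rows with 1 group level each for knockdown and control, a signal on an unstated scale. Fold changes were deposited as log2 values and p-values in unadjusted and adjusted form. Depth per sample is unknown.

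Groups below 1e-10 were read as listed at 0, 1 shifted row was realigned and 1 repeated row dropped, leaving 155 features. No test between samples was run, since there is 1 value per group. Standard errors were derived as the deposited log2 fold change over the normal quantile of its p-value. Simulated data checked only the arithmetic, and cannot show whether the deposited test was a Wald test. Loci of 7 of the 8 genes equal GENCODE M21 (GRCm38) gene spans. Members and the 22 gene lists were chosen with earlier results of these data known. Named genes were all members, all list genes with a row, and the 3 rows nearest to the members' median. Glp1r, Adgra1, Cplx1, Frrs1l, Rgs17 and Pde8a were added after their values were seen. Alternatives were the deposited fold change, pseudocounts of 1 and 10, an adjusted p of 0.01, an absolute log2 fold change of 1 and a level of 100. Calculations used Python with pandas, NumPy and SciPy.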

Additional observations from a re-analysis of the deposited data

How the results depend on the processing

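The count of 8 lower receptor gene rows became 4 with an adjusted p below 0.01 and 2 when a log2 fold change of 1 or more in size was required, which by construction admit fewer features, and 6 when levels had to reach 100 in a group. With the deposited fold change, or a pseudocount of 1 or 10, which by construction cannot turn a direction, Adra2c moved most, to -1.04 with a pseudocount of 10, against -1.60 without. The other 6 genes above 0 in both groups moved by at most 0.036 on the log2 scale. The median over the receptor genes ranged from -0.67 with all 8 genes and a pseudocount of 1 to -0.58 when levels had to reach 100. No paired analysis was possible because the table has 1 value per group and no columns of single samples, and for the same reason no sample could be left out. Depth is unknown, so no limit of detection can be given for Grik1, listed at 0 in shPaupar cells.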

Other observations

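Some further rows of the authors' deposited table bear on cell signalling and were chosen after their values were seen. Glp1r, the receptor for the incretin hormone and neuropeptide made from proglucagon, was at 37.6 in shPaupar cells and 69.3 in control cells, and the authors' deposited table lists a log2 fold change of -0.88 and an adjusted p of 0.0439. Adgra1, an adhesion G protein-coupled receptor, was at 1598 in shPaupar cells and 2145 in control cells, and the authors' deposited table lists a log2 fold change of -0.42 and an adjusted p of 0.00679. In the opposite direction, Cplx1, which encodes a complexin that controls vesicle fusion at presynaptic terminals, was at 2471 in shPaupar cells and 1908 in control cells, and the authors' deposited table lists a log2 fold change of 0.37 and an adjusted p of 0.0320. Cplx1 lies on chromosome 5, as do Gabrb1, Gabra4, Grm3 and Adra2c.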
